A study of Mus musculus with 8 samples.

Results

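The genes described here are 10 genes of the calcineurin pathway: the phosphatase subunits Ppp3ca, Ppp3cb and Ppp3r1, the calcineurin regulators Rcan1, Rcan2 and Cabin1, and the NFAT transcription factors Nfatc1, Nfatc2, Nfatc3 and Nfatc4. They were chosen by symbol. Probe sets annotated to 1 of these symbols alone were taken, 34 in all, and where a gene had several, the one brightest on average across the 8 arrays stood for it. All 10 genes had such a probe set, of 18193 genes on the array that did, and all 10 also lay above a log2 value of 5 in at least 4 arrays, as did 9604 genes that were tested. Transcripts were measured in heart ventricles of 8 male FVB mice, an inbred strain, aged 8 to 12 weeks, with 1 Affymetrix array per mouse. Of these mice, 4 carried a CHF1/Hey2 transgene that the mlc2v promoter drives in heart muscle, and 4 were wild type. Every mouse, wild type included, had been banded around the ascending aorta for 1 week, which makes the left ventricle pump against a higher pressure, so the response to banding itself cannot be read from these arrays. All values below are log2 expression values, and differences are transgenic (TG) minus wild type (WT) on that scale.

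Calcineurin is a phosphatase that calcium switches on. It is built of a catalytic subunit and a small calcium-binding subunit, and it strips phosphates from NFAT proteins, which then enter the nucleus and turn on transcription together with factors such as GATA4 and MEF2. Kinases such as GSK3, DYRK and casein kinase 1 put the phosphates back. In the mouse heart, active calcineurin is known to drive pathological growth of the muscle, and Rcan1 is itself an NFAT target, induced from a start site inside the gene, whose protein binds calcineurin.

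The promoter windows of Rcan1 and Nfatc3 are shown because these were the 2 genes whose difference kept its sign under every alternative that was run. Some of the alternatives cannot change a difference. Each window runs from 250 bases before to 50 bases after an annotated start, 5′ to 3′ on the gene's strand, with sequences and coordinates from RefSeq on GRCm38.p6. Capitals mark GGAAA, the core that NFAT proteins bind, in either orientation (TTTCC on the other strand), and also CACGTG, a palindrome, and CACGCG in either orientation, motifs that hairy-related repressors bind. No match overlapped another in these windows.
Rcan1, upstream start, chr16:92466120-92466419, minus strand: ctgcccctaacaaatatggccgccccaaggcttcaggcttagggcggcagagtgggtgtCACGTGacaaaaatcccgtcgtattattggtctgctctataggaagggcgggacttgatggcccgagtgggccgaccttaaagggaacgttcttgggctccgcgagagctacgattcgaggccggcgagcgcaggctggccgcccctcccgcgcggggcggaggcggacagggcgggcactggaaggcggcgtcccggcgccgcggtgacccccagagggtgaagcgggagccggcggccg
Rcan1, internal start, chr16:92400029-92400328, minus strand: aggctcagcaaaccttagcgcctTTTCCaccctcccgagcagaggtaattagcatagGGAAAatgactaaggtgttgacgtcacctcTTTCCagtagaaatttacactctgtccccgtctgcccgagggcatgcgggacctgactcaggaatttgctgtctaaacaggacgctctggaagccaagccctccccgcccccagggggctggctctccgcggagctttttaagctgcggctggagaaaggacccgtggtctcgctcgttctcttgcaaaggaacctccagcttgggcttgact
Nfatc3, first start, chr8:106058568-106058867, plus strand: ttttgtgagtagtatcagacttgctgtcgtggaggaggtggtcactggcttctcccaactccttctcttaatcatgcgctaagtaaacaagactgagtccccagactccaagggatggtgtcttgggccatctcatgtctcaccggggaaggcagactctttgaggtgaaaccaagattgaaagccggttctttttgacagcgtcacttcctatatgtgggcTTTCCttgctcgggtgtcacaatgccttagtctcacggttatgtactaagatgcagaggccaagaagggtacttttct
Nfatc3, second start, chr8:106059340-106059639, plus strand: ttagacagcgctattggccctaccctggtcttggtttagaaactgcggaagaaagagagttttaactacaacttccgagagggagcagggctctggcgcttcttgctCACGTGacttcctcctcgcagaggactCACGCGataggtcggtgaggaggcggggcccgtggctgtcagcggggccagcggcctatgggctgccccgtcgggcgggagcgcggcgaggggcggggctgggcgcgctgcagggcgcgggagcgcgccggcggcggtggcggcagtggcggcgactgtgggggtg
The window of the internal Rcan1 start held 3 GGAAA matches, first bases at -227, -193 and -163 from the start, and the window of the upstream start held none but had a CACGTG at -191. Of all 32851 promoter windows of this length, 61.3% held GGAAA and 9.42% held 3 or more matches. The first Nfatc3 window held 1 TTTCC, at -28, and the second held a CACGTG at -143 and a CACGCG at -116, motifs found in 7.15% and 9.27% of all windows. Promoter windows matched 8 of the 10 genes, and no start is assigned here to any probe set, so the array values do not say which Rcan1 start was used.

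The labels and the arrays were checked first. The Hey2 probe set lay between 5.70 and 6.26 in the TG arrays and between 5.68 and 6.76 in WT arrays, a difference of -0.11. Whether it reads the transgene is not known, so the arrays are called TG and WT after their labels. TG replicate 2 stood apart from every other array: 3570 of the 9604 genes (37.2%) departed there by more than 2-fold from the median over the other 7. The same was true of 889 genes in TG replicate 3, and of 70 to 147 genes in each array besides these. All 8 heart muscle markers were above the filter, Myh6 between 15.80 and 16.11, while of 7 lymphocyte markers only Cd4 was. TG replicate 2 was the lowest array for Myh6, Tnnt2, Ryr2, Pln and Myl2, but not for Actc1, Tnni3 and Mb. Pln was 13.22 there and at least 14.61 elsewhere, and Ryr2 13.49 and at least 14.02. The log2 of the summed linear heart muscle values was 18.03 there and between 18.26 and 18.36 elsewhere. The part of this in the calcineurin pathway values was not tested. The difference between the 3′ and 5′ control probe sets of beta-actin, a sign of RNA integrity, was 0.62 in TG replicate 2 and lay between 0.78 and 1.21 in the other arrays. That of Gapdh was -0.27 in TG replicate 2, inside the range of -0.28 to -0.11 in the others. All p-values rest on the spread between arrays of 1 mouse each, where differences between mice and between arrays cannot be told apart.

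No calcineurin, Rcan or NFAT gene passed the test between TG and WT arrays. With limma and Benjamini-Hochberg adjustment over all 9604 genes, 0 of the 10 genes passed at 0.05, as did 0 (0%) of all genes, and the adjusted p of the 10 ranged over 0.813 to 0.929. At an unadjusted p under 0.05 there were 0 of the 10 genes and 153 (1.59%) of all genes. In none of the 10 did the 4 values of the TG arrays lie wholly above or below the 4 WT values, which was so for 238 (2.48%) of all genes. Of the 10 differences, 5 were positive and 5 negative, with a median of -0.01, beside a median of 0.06 over all genes. The most negative was that of Ppp3ca at -0.78 and the most positive that of Nfatc1 at 0.33. Each array is bulk tissue, so fewer cells of a type and less RNA per cell cannot be told apart.

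**Figure D1:**
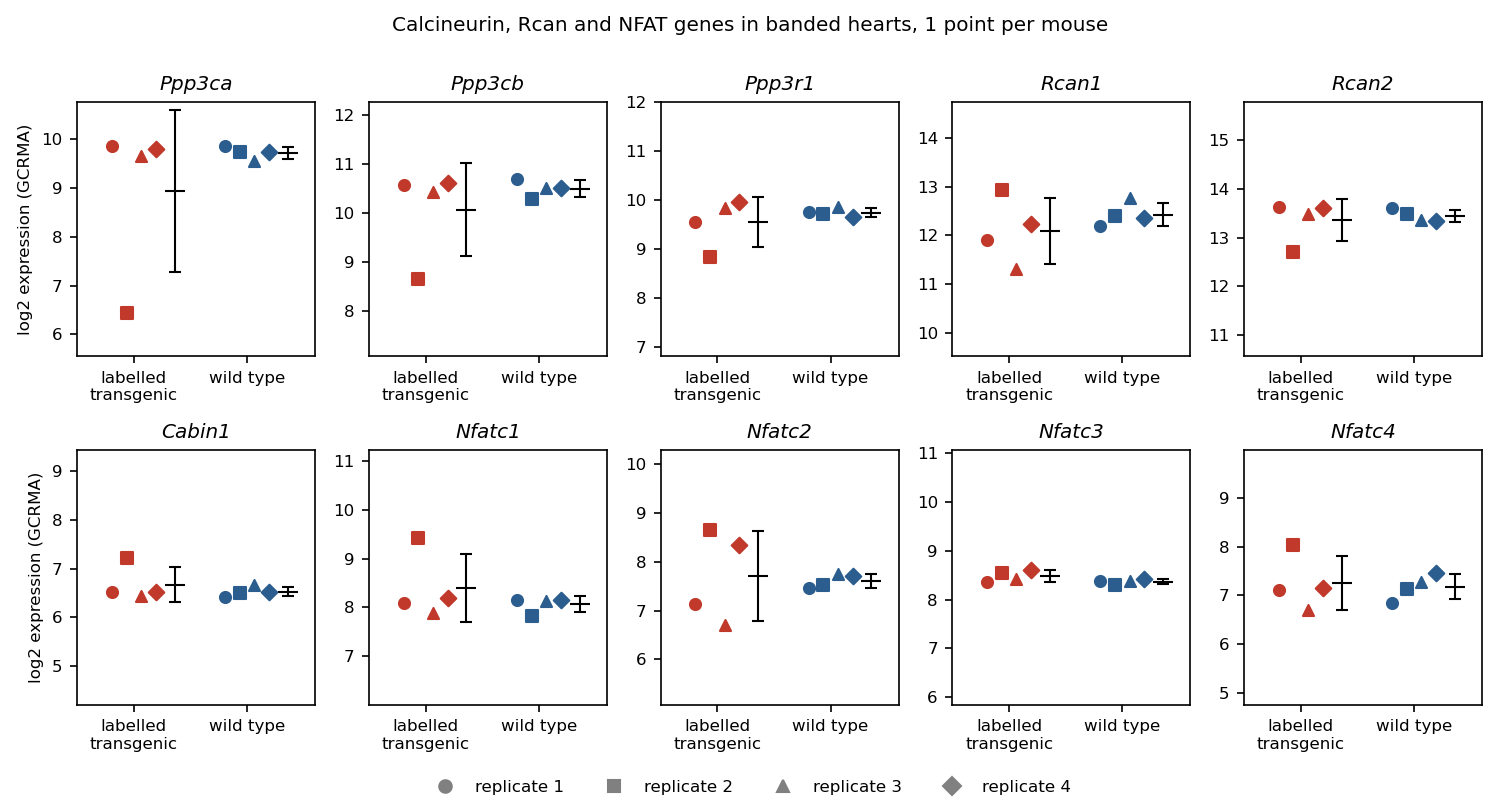
Log2 expression of the 10 genes, 1 point per array, with TG arrays left and WT arrays right, marker shape giving the replicate number, and bars giving mean ± SD (n = 4 each). Every panel spans the same log2 range. In 9 of the 10 panels TG replicate 2 is the highest or lowest of the 8 points, while the WT points lie within 0.11 to 0.61 of each other.

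The 2 catalytic subunits were lowest in TG replicate 2 and level elsewhere. Ppp3ca, the alpha catalytic subunit, had 9.85, 6.45, 9.65 and 9.79 in TG replicates 1 to 4, against 9.85, 9.73, 9.55 and 9.73 in WT replicates 1 to 4. Only TG replicate 2 lay outside the WT range, over 3 log2 units below it. The means were 8.93 ± 1.66 in TG arrays and 9.71 ± 0.13 in WT arrays (SD, n = 4 each). They differed by -0.78 (95% confidence interval -2.39 to 0.83; limma adjusted p = 0.813). Without TG replicate 2 the difference was 0.05, with an interval of -0.22 to 0.32. Ppp3cb, the beta catalytic subunit, had 10.58, 8.65, 10.42 and 10.62 in the TG arrays, against 10.69, 10.28, 10.51 and 10.51 in WT arrays. Here too only replicate 2 stood apart, and the other 3 TG values fell inside the WT range. The difference of Ppp3cb was -0.43 (interval -1.40 to 0.54), or 0.04 (interval -0.26 to 0.34) without TG replicate 2.

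Ppp3r1, which encodes the calcium-binding regulatory subunit, had 9.56, 8.84, 9.84 and 9.97 in the TG arrays, against 9.75, 9.72, 9.86 and 9.65 in WT arrays. TG replicates 1 and 2 lay below all WT values and replicate 4 above them. The means were 9.55 ± 0.50 in TG arrays and 9.75 ± 0.09 in WT arrays, a difference of -0.19 (SE 0.251), or 0.04 without TG replicate 2. The second probe set of Ppp3r1, at 6.61 in TG replicate 2, did not place that array lowest: its lowest value was 6.14, in TG replicate 4, and its WT values ran between 6.34 and 6.62.

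Rcan1, whose transcript is the usual readout of calcineurin and NFAT activity, had the most spread among the WT hearts of the calcineurin regulators, on the probe sets used. It had 11.90, 12.93, 11.32 and 12.23 in the TG arrays, against 12.19, 12.40, 12.77 and 12.36 in WT arrays. TG replicates 1 and 3 lay below every WT heart, replicate 2 lay above every one and replicate 4 among them, so the TG values ran in both directions. The means were 12.10 ± 0.67 in TG arrays and 12.43 ± 0.24 in WT arrays (SD, n = 4 each). They differed by -0.33 (interval -1.08 to 0.41; limma adjusted p = 0.813), and an exact two-sided permutation test of the means gave p = 0.429, where the smallest possible p is 0.0286. Leaving out TG replicate 2 moved the difference to -0.61 (interval -1.15 to -0.07), with an unadjusted limma p of 0.0313 and an adjusted p of 0.945. It was then the only 1 of the 10 genes at an unadjusted p under 0.05, beside 232 (2.42%) of all genes, and the exact permutation p was 0.114. Leaving out TG replicate 3 moved it to -0.07 and leaving out both to -0.36.

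A second Rcan1 probe set put TG replicate 2 highest as well, at 12.04, and the other TG arrays at 10.83, 10.20 and 10.26, against 11.05, 11.22, 10.66 and 10.61 in WT arrays. On it TG replicate 1 lay inside the WT range, replicates 3 and 4 lay below it, and the difference was -0.06. The median of 5 macrophage markers, relative to the WT mean, was 0.39, 0.76, -1.13 and -0.28 in TG replicates 1 to 4, against 0.56, 0.05, -0.20 and -0.42 in WT replicates 1 to 4. Among the TG arrays replicate 3, lowest for Rcan1 on both probe sets, was lowest here and replicate 2 highest in both. Among WT arrays replicate 1 was the highest here and the lowest for Rcan1 on the probe set used. On the second Rcan1 probe set WT replicate 4 was the lowest WT array, as it was here, and WT replicate 2 the highest. The 5 macrophage markers together, as the log2 of their summed linear values, ran between 12.30 and 14.09 in TG arrays and between 12.89 and 13.75 in WT arrays, with all 5 above the filter. The 5 fibroblast markers, all above the filter, summed in the same way to 14.31 in TG replicate 3 and to between 15.73 and 16.01 in the other TG arrays, against 15.81 to 16.03 in WT arrays. Their median, relative to the WT mean, was -0.68 in TG replicate 3 and between -0.12 and 0.02 in the other TG arrays, against -0.09 to 0.08 in WT arrays. Dcn, Pdgfra and Tcf21 were 13.27, 9.38 and 8.90 in TG replicate 3 and at least 13.33, 9.59 and 9.20 elsewhere. Col1a1, a collagen of fibroblasts, was 10.44 in TG replicate 3 and at least 13.59 in every other array. The load-responsive heart genes Nppa and Myh7 were also lowest there, Nppa at 12.96 and at least 14.66 in the others, Myh7 at 12.14 and at least 13.74 in the others. The part of these in the Rcan1 values was not tested.

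The genes with profiles most like that of Rcan1, by the root mean square difference of profiles centred on their mean over the 8 arrays, were Ms4a6b at 0.12, Hbegf, an EGF receptor ligand, at 0.12 and Slc43a2, an amino acid transporter, at 0.13. The median over all genes was 0.53, and the profile of Rcan1 itself had a root mean square of 0.47 around its mean. Hbegf had 11.01, 11.81, 10.31 and 11.44 in the TG arrays, against 11.31, 11.41, 11.66 and 11.54 in WT arrays. As with Rcan1, TG replicate 2 was highest, replicate 3 lowest and replicate 1 below all WT hearts. Hbegf was picked for its likeness to Rcan1, so this shared order follows from the choice.

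Rcan2, a relative of Rcan1 that also binds calcineurin, had 13.63, 12.71, 13.48 and 13.60 in the TG arrays, against 13.60, 13.49, 13.36 and 13.34 in WT arrays. TG replicate 2 alone lay below the WT hearts, and replicates 1 and 4 just above them. Its difference was -0.09 (interval -0.62 to 0.43), or 0.12 (interval -0.14 to 0.39) without TG replicate 2. The second Rcan2 probe set read otherwise: WT replicates 3 and 4, at 9.83 and 10.44, and TG replicate 4, at 10.75, were its low arrays, and its difference was 0.47. Its SD in WT arrays was 0.837, wider than the 0.243 and 0.298 of the Rcan1 probe sets. Which Rcan2 transcripts each Rcan2 probe set reads is not known here.

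Cabin1, which encodes a nuclear protein that binds calcineurin and MEF2, had 6.52, 7.22, 6.45 and 6.52 in the TG arrays, against 6.42, 6.51, 6.66 and 6.52 in WT arrays. Only TG replicate 2 lay above the WT range, and the other 3 were inside it. The means were 6.67 ± 0.36 in TG arrays and 6.53 ± 0.10 in WT arrays, a difference of 0.14 (SE 0.205), or -0.04 without TG replicate 2.

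Among the NFAT factors, Nfatc1, known in the heart for endocardium and valves, had 8.10, 9.41, 7.89 and 8.20 in the TG arrays, against 8.15, 7.82, 8.14 and 8.16 in WT arrays. Replicate 2 was the highest array, over 1 log2 unit above the rest, replicate 4 lay just above the WT range, and replicates 1 and 3 lay inside it. The difference of 0.33 (interval -0.40 to 1.07) was -0.0041 (interval -0.32 to 0.31) without TG replicate 2. The 6 endothelial and endocardial markers, relative to the WT mean, had medians of 0.10, 0.31, 0.00 and 0.15 in TG replicates 1 to 4. The medians were -0.01, 0.32, -0.05 and -0.29 in WT replicates 1 to 4, where replicate 2 was the array lowest for Nfatc1. In TG replicate 2 the markers went both ways. Pecam1, Cdh5 and Tie1 were highest of the 8 arrays there, at 11.18, 9.38 and 9.63. Kdr and Npr3 were lowest there, at 8.52 and 6.16, and Tek, at 9.57, was neither. As the log2 of their sum the 6 markers lay between 11.65 and 12.28 in TG arrays and between 11.45 and 11.97 in WT arrays. All 6 were above the filter, and their part in the Nfatc1 values was not tested.

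Nfatc2, the NFAT of T cells that heart muscle also uses, was the most variable of the 10 genes among the TG arrays other than replicate 2. It had 7.14, 8.65, 6.71 and 8.34 in the TG arrays, against 7.47, 7.51, 7.74 and 7.71 in WT arrays. No TG value fell inside the WT range: replicates 2 and 4 were above it and replicates 1 and 3 below. The means of 7.71 ± 0.93 in TG arrays and 7.61 ± 0.14 in WT arrays differed by 0.10 (interval -0.84 to 1.04). The difference turned to -0.21 without TG replicate 2 and to -0.11 without TG replicate 4, and was 0.43 without TG replicate 3. The SD of the remaining 3 TG arrays, without replicate 2, was 0.842. The second Nfatc2 probe set gave 7.61, 8.11, 7.10 and 7.62 in the TG arrays, against 7.60, 7.51, 7.64 and 7.81 in WT arrays. There replicates 1 and 4 lay inside the WT range, while replicates 2 and 3 still lay outside it. The remaining Nfatc2 probe set above the filter gave 5.78, 6.65, 5.25 and 6.25 in the TG arrays. Its WT values were 5.66, 5.81, 5.83 and 5.82. On it only replicate 1 lay inside the WT range, with replicates 2 and 4 above and replicate 3 below. Of the lymphocyte markers, Cd4, the only 1 above the filter, was 6.73 in TG replicate 2, where Nfatc2 was highest, and between 5.29 and 5.60 in the other arrays. Cd8a, below the filter, was also highest there at 4.62, and the T cell receptor parts Cd3e and Cd3g were at most 2.65 in every array. The 6 measured lymphocyte markers summed to between 6.27 and 7.27 in TG arrays and between 6.25 and 6.49 in WT arrays, as the log2 of their linear sum, and their part in the Nfatc2 values was not tested.

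Nfatc3, a factor required for calcineurin-driven heart growth in mice, had the smallest SD of the 10 genes in both groups. Its values were 8.35, 8.55, 8.41 and 8.60 in the TG arrays, against 8.37, 8.31, 8.37 and 8.42 in WT arrays. Replicates 2 and 4 lay above the WT range by under 0.2 log2 units. The means were 8.48 ± 0.12 in TG arrays and 8.37 ± 0.05 in WT arrays, a difference of 0.11 (interval -0.21 to 0.44), or 0.09 without TG replicate 2. Nfatc4, which is also found in heart muscle and was first tied to GATA4 there, had 7.11, 8.03, 6.71 and 7.16 in the TG arrays, against 6.85, 7.13, 7.27 and 7.46 in WT arrays. Replicate 2 was highest and replicate 3 lowest of the 8. The difference was 0.08 (interval -0.58 to 0.73), or -0.18 (interval -0.61 to 0.24) without TG replicate 2. The probe sets of Nfatc3 and Nfatc4 carry the suffix _s_at, which marks probes that may also match other transcripts.

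**Figure D2:**
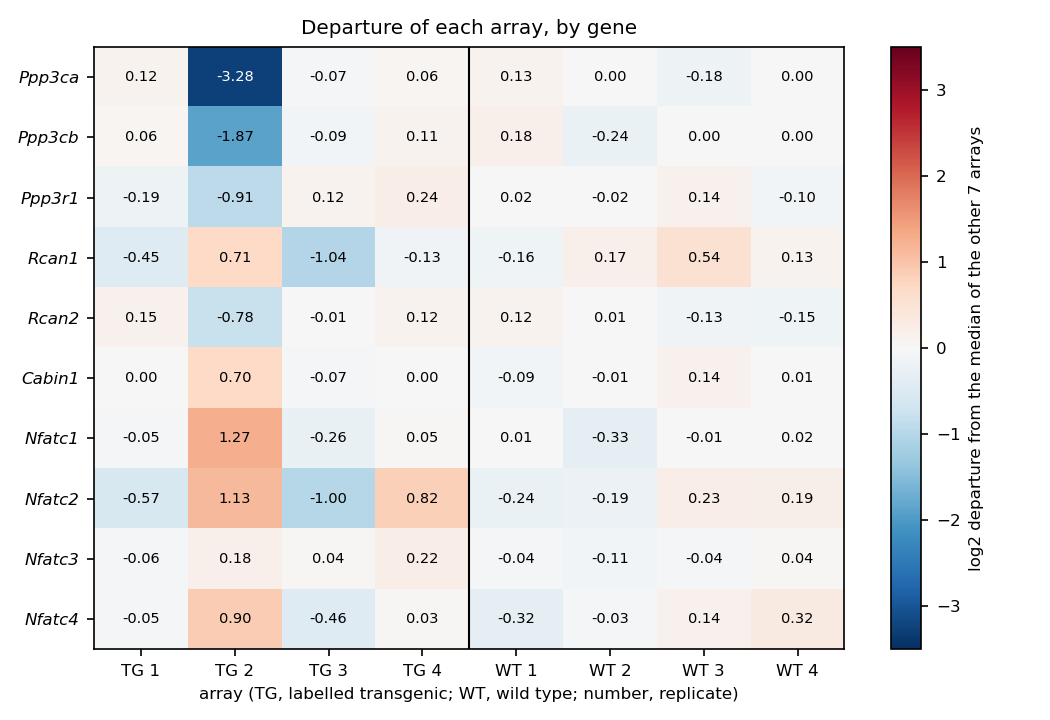
Log2 departure of each array from the median of the other 7 arrays, by gene (rows) and array (columns), TG arrays left of the line and WT arrays right. The column of TG replicate 2 runs from -3.28 for Ppp3ca to 1.27 for Nfatc1, and in the other 7 columns the largest departure is -1.04, for Rcan1 in TG replicate 3.

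Set side by side on the probe sets used, the phosphatase genes lay lower in TG replicate 2, and Nfatc1, Nfatc2 and Nfatc4 lay higher. Relative to the median of the other 7 arrays, that array lay lower for Ppp3ca at -3.28, Ppp3cb at -1.87, Ppp3r1 at -0.91 and Rcan2 at -0.78. It lay higher for Nfatc1 at 1.27, Nfatc2 at 1.13, Nfatc4 at 0.90, Rcan1 at 0.71 and Cabin1 at 0.70. Nfatc3 departed by only 0.18 there, less than the 0.22 of TG replicate 4. TG replicate 2 was the highest array for 5 of the 10 genes and the lowest for 4, and 77.8% of all genes tested also had their highest or lowest value there. Of all genes tested, 1613 lay over 2-fold higher there and 1957 over 2-fold lower. Over 2-fold departures in that array were seen for 4 of the 10 genes, near the 37.2% of all genes. This is 1 mouse, and no test can be made of it.

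Other probe sets of the same genes repeated most of these departures. Of the 34 probe sets, 22 lay above the filter. The 3 probe sets of Ppp3ca departed by -3.28, -1.48 and -1.30 in TG replicate 2, and the 4 of Ppp3cb by -1.87, -2.62, -1.17 and -0.67. All 3 of Nfatc2 were higher there, at 1.13, 0.50 and 0.84, as were both of Nfatc1, at 1.27 and 0.92, and both of Rcan1, at 0.71 and 1.37. The second probe sets of Ppp3r1 and Rcan2 departed by only 0.13 and -0.11. That of Nfatc3 departed by 0.40, more than the 0.18 of the probe set used, with TG replicate 2 the highest array at 6.73. Probe sets of a gene share 1 array and are not replicates.

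**Figure D3:**
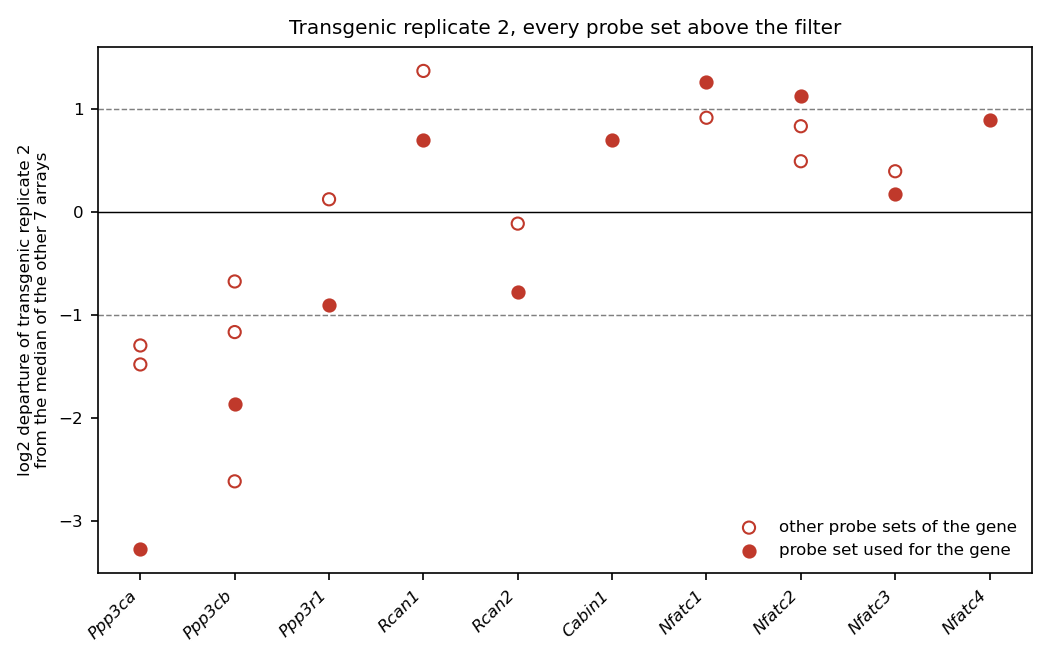
Log2 departure of TG replicate 2 from the median of the other 7 arrays for the 22 probe sets above the filter, by gene, filled for the probe set used and open for the others, with dashed lines at 2-fold. All probe sets of Ppp3ca and Ppp3cb lie below 0 and all of Rcan1, Nfatc1 and Nfatc2 above, while Ppp3r1 has probe sets on both sides.

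The spread within the TG arrays was wider than in WT arrays for 10 of the 10 genes, as it was for 89.1% of all genes. The median SD of the 10 genes was 0.616 in TG arrays and 0.131 in WT arrays, beside 0.491 and 0.186 over all genes. With TG replicate 2 left out, the TG SD was the wider for 4 of the 10 genes, beside 63.6% of all genes, and its median over the 10 genes was 0.143. Those 4 were Ppp3r1, Rcan1, Nfatc2 and Nfatc3. Of the 10 genes, 4 had a TG value set apart from the other 3 by Dixon's criterion, beside 1645 (17.1%) of all genes.

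**Figure D4:**
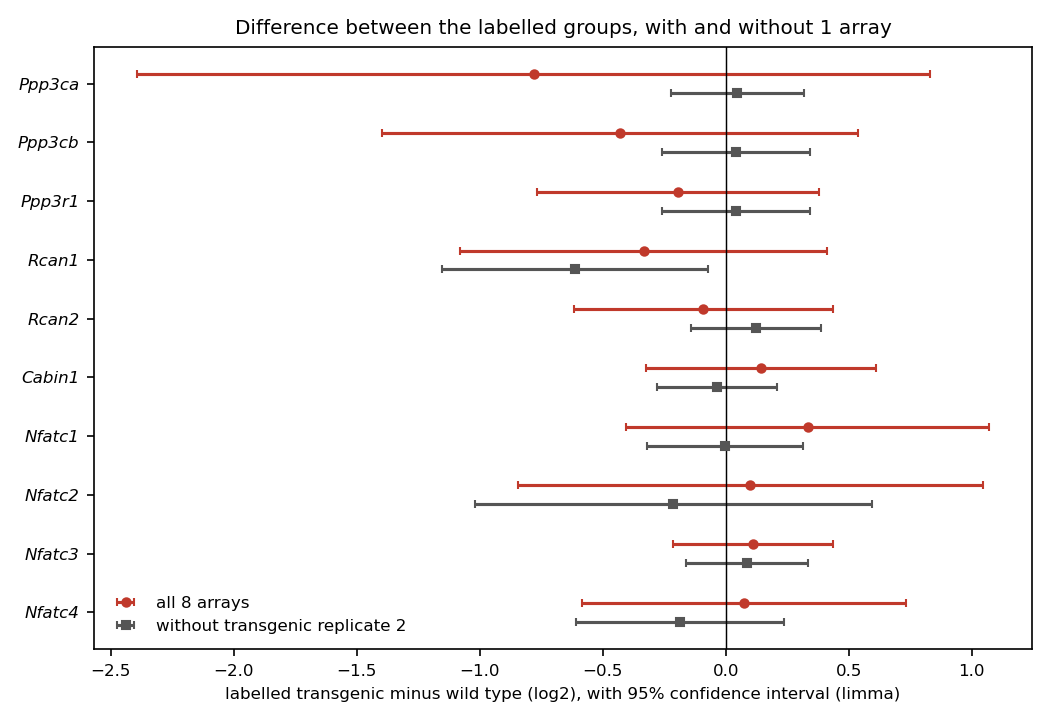
Difference between TG and WT arrays on the log2 scale with its 95% confidence interval from limma, for all 8 arrays (circles) and without TG replicate 2 (squares). Every interval with all arrays spans 0. Without that array the intervals of Ppp3ca, Ppp3cb and Cabin1 shrink to within 0.35 of 0, and that of Rcan1 runs from -1.15 to -0.07.

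The rest of the pathway was read from 45 genes in 5 lists by role, of which 31 were tested. None of the 31 passed (limma, adjusted p between 0.813 and 0.999), 0 had an unadjusted p under 0.05, beside 1.59% of all genes, and in 0 did the groups not overlap, beside 2.48% of all genes. Of their differences 16 were positive and 15 negative, with a median of 0.02. In TG replicate 2, 13 of the 31 departed over 2-fold from the other arrays, 5 higher and 8 lower, near the 37.2% of all genes.

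Among the other subunits and relatives, 3 of 4 genes were tested. Nfat5, an NFAT relative that responds to salt stress and not to calcineurin, differed by -0.68 and was 6.32 in TG replicate 2, against 8.52 to 8.96 in the other 7 arrays. Without that array it differed by -0.08. Rcan3, of the Rcan family, differed by 0.29 and Ppp3cc, the gamma catalytic subunit, by 0.11, or by -0.01 and 0.30 without TG replicate 2. Of the channels that let calcium in, Trpc1 differed by -0.65 and Cacna1c, the pore of the L-type channel, by 0.10. Trpc1 was 4.25 in TG replicate 2 and at least 6.62 elsewhere, and without that array it differed by -0.03.

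Proteins that anchor or bind calcineurin were tested in 7 of 14 cases, with a median difference of 0.05. Lmcd1, a LIM protein that promotes calcineurin-driven growth in the mouse heart, differed by 0.34, or 0.02 without TG replicate 2. Akap6, the muscle anchor mAKAP that holds calcineurin at the nuclear envelope, differed by -0.44, Akap1, the anchor at mitochondria, by 0.11 and Homer2, a scaffold that binds NFAT, by 0.05. Without TG replicate 2 these 3 were at 0.11, 0.20 and 0.17. Akap1 turned to -0.083 without TG replicate 3, and Homer2 turned to -0.048 without TG replicate 4 and to -0.017 without WT replicate 3.

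Kinases that return NFAT to the cytoplasm were all 11 tested, 4 with a positive and 7 with a negative difference, and the median was -0.04. Dyrk1a, which phosphorylates NFAT in the nucleus, had means of 9.47 ± 0.32 in TG arrays and 9.11 ± 0.18 in WT arrays (SD, n = 4 each), a difference of 0.36, or 0.21 without TG replicate 2. Mapk14, the p38 alpha kinase, differed by 0.32, Csnk1a1, casein kinase 1 alpha, by -0.34 and Dyrk2 by -0.53. Without TG replicate 2 these 3 were at 0.16, -0.08 and -0.04.

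Nuclear partners of NFAT were all 8 tested, 4 with a positive and 4 with a negative difference. Gata4, the cardiac factor that binds NFAT, had 9.16, 9.62, 9.24 and 8.96 in the TG arrays, against 9.36, 9.03, 8.24 and 8.39 in WT arrays. WT replicates 3 and 4 were the low arrays and the groups overlapped, with a difference of 0.49, or 0.32 without WT replicate 3. Fos, a subunit of AP-1 that pairs with NFAT on DNA, had 6.46, 8.42, 5.74 and 7.27 in the TG arrays, against 6.72, 8.12, 7.94 and 7.70 in WT arrays. Its difference of -0.64 became -1.13 without TG replicate 2 (limma across all genes, adjusted p = 0.945, with an unadjusted p of 0.0326), with WT replicate 1 still inside the TG range. Ep300, a histone acetyltransferase, differed by -0.43 and Mef2d by 0.23, or by -0.01 and 0.04 without that array.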

How the data were processed

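Total RNA of heart ventricles was hybridised to Affymetrix Mouse Genome 430 2.0 arrays, according to the labels. Per probe set, the authors deposited log2 expression values. GCRMA, named in the submitters' processing notes, corrects background by probe sequence, normalizes between arrays and summarizes probes. The GCRMA version is not stated in these sources. Values near the floor are pulled together, so differences there are hard to read. Arrays give no counts, so precision is set by their number.

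Of 45101 probe sets, 34945 had 1 gene symbol in the platform annotation and were not controls. Symbols were checked through Entrez identifiers, which changed 0. A gene was represented by its probe set with the highest mean and tested if above 5 in at least 4 arrays. Groups came from the sample titles. limma 3.58.1 in R 4.3.3 (lmFit, eBayes) compared the groups over all 8 arrays, with no block, and p-values were adjusted by the Benjamini-Hochberg method with a threshold of 0.05; the steps were tested on simulated data. Rcan1 was also given an exact permutation test (scipy 1.17.1). The members, lists, tests and alternatives were chosen with earlier results of these data known. Named were the 10 genes, Hey2, up to 4 genes of each list with the smallest p, and the 3 genes with profiles most like that of Rcan1; probe sets and markers were named beside the results they touch. Promoter windows are RefSeq's. Alternatives changed the filter, scaling, model, probe set rule and test, and left out arrays.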

Additional observations from a re-analysis of the deposited data

Results flagged for a closer look

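Dixon's criterion, which compares a value's gap to its nearest neighbour with the range of its group of 4, singled out 5 values among the 20 groups formed by the 10 genes and the 2 labels. Chance gives about 5% of groups. Of these values 4 were of TG replicate 2: Ppp3ca at 6.45, Ppp3cb at 8.65, Rcan2 at 12.71 and Cabin1 at 7.22. The remaining value was that of Nfatc1 in WT replicate 2, at 7.82, where the other 3 WT arrays lay at 8.14, 8.15 and 8.16. Across all genes tested the criterion was met by 17.1% in the TG arrays and by 6.61% in WT arrays.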

How the results depend on the processing

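No gene of the 10 and no pathway gene passed under any alternative run. Over all genes 0 passed, except with limma's array weights, where 1 did (adjusted p = 0.0372). At an unadjusted p under 0.05 there were 1528 genes with array weights, 363 without a filter and 102 with the filter at 7, and between 34 and 541 when single arrays were left out, against 153; the unequal-variance test gave 144. Of 202 recomputed differences of the 10 genes, 177 kept their sign and 25 did not, 8 of these without TG replicate 2 and 6 without replicates 2 and 3. Rcan1 and Nfatc3 kept theirs throughout. The 177 include signs that could not turn: a change of filter, block or test, or of how limma pools variances, leaves each difference as it was. When single arrays were left out, Rcan1 ran between -0.61 and -0.07, Nfatc3 between 0.07 and 0.15, Ppp3ca between -1.08 and 0.048, Ppp3cb between -0.62 and 0.043, Ppp3r1 between -0.33 and 0.042, Rcan2 between -0.18 and 0.12, Cabin1 between -0.036 and 0.22, Nfatc1 between -0.0041 and 0.50, Nfatc2 between -0.21 and 0.43, and Nfatc4 between -0.18 and 0.26. Besides TG replicate 2, leaving out TG replicate 4 turned Nfatc2 to -0.11 and leaving out WT replicate 1 turned Nfatc4 to -0.034. Without TG replicates 2 and 3, Ppp3ca, Ppp3cb, Ppp3r1, Rcan2, Cabin1 and Nfatc4 turned to 0.10, 0.10, 0.016, 0.17, -0.012 and -0.041. With array weights, Ppp3ca, Ppp3cb, Rcan2, Cabin1, Nfatc2 and Nfatc4 turned to 0.11, 0.064, 0.21, -0.026, -0.38 and -0.16. Rcan2 turned to 0.19 with the mean of probe sets and to 0.47 on its second probe set, and Nfatc2 to -0.032 on its second. The cause of these turns was not tested beyond the arrays and probe sets named. With the replicate number as a block, 0 genes passed, 147 had an unadjusted p under 0.05 and every sign was kept. Same-numbered arrays did not deviate together in every pair (correlations of 0.30, -0.01, -0.33 and 0.20), so the numbers were not taken to pair the mice.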
